A study of Mus musculus with 24 samples.

Results

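Adult offspring of dams exposed to maternal immune activation (MIA) were compared with control offspring at rest, in microglia sorted from frontal cortex and striatum. The comparison took the saline-injected animals only, which made up 12 of the 24 samples in the series, 6 MIA against 6 control, and it was made across all genes with brain region as a term. The samples were bulk RNA-seq libraries of CD11b-positive cells from male mice aged 8 to 10 weeks, isolated with magnetic beads after perfusion, removal of the meninges, papain digestion and debris removal. Libraries were made from oligo-dT-primed, amplified cDNA by a modified Smart-Seq2 protocol. Control cortex saline, MIA cortex saline, control striatum saline and MIA striatum saline held 3 libraries each, all collected 18 hours after the injection. The other 12 samples had received lipopolysaccharide (LPS), a bacterial cell wall component, in place of saline. The labels name neither the agent given to the dams nor the litter of each animal, and prenatal group and litter cannot be told apart. The labels do not say that replicates came from separate animals, and the p-values then measure only the spread between these samples, which may be technical.

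Microglia are the resident macrophages of the brain. They survey the tissue with receptors such as the purine receptor P2ry12 and the fractalkine receptor Cx3cr1, and they respond to microbial products through Toll-like receptors. MIA is a model of infection during pregnancy, in which the immune system of the dam is stimulated while the fetal brain is developing. The comparison at rest addressed whether adult microglia of such offspring differ before any later challenge.

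The 12 libraries held 20020048 to 28719718 counts each and 18113 to 20381 genes with a count. Defining microglial genes were abundant in every library: Csf1r stood at 9582 to 16099 CPM (a count scaled to a fixed library total) and Cx3cr1 at 6503 to 9014 CPM. The Y-linked gene Ddx3y was detected in every library, at 48.8 to 85.4 CPM. Most markers of other cells were present at low levels, though Trf of the oligodendrocyte list had a mean of 3498 CPM in control. Of 11 such marker lists only Cd8a, a T cell gene, had no count in any library. In bulk samples, fewer cells of a type and less RNA per cell cannot be told apart.

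No gene passed an adjusted p of 0.05 for MIA against control over both regions. The edgeR quasi-likelihood test with Benjamini-Hochberg adjustment called 0% of the 15663 genes tested, and the smallest adjusted p was 0.0635. At an unadjusted p under 0.05 the same edgeR test gave 1490 genes, 625 higher in MIA (3.99% of the genes tested) and 865 lower (5.52%). DESeq2's Wald test with the same terms called 74 genes higher (0.573% of the 12920 genes with an adjusted p) and 37 lower (0.286%). All 6 MIA libraries lay above all 6 control libraries for 35 genes (0.223%) and below them for 62 (0.396%). For scale, the difference between striatum and cortex in the same edgeR fit gave 328 called genes (2.09%), or from 97 without MIA striatum replicate 3 to 422 without MIA striatum replicate 2. Single libraries moved the count for MIA against control. Without control striatum replicate 3 edgeR called 7 genes, without MIA cortex replicate 2 it called 12, without MIA cortex replicate 3 it called 3 and without MIA striatum replicate 3 it called 2. Leaving out any of the other 8 libraries gave 0. The genes described below therefore missed the edgeR threshold with all 12 libraries, and their values are given with their errors.

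The genes with the smallest p among those higher in MIA were mostly ribosomal protein genes. Ribosomal proteins assemble with ribosomal RNA into the small (Rps genes) and the large (Rpl genes) ribosomal subunit. Their mRNAs typically begin with a run of pyrimidines, the 5′ terminal oligopyrimidine tract, through which mTOR signalling controls their translation. The starts of 5 of them are shown because their genes were among the higher genes with the smallest p and had an entry in the sequence table. Each runs from 30 bases before to 30 bases after the RefSeq start (build GRCm38.p6), 5′ to 3′ on the coding strand, and capitals mark runs of at least 5 C or T.
Rps28 (chr17:33824533-33824592, minus strand): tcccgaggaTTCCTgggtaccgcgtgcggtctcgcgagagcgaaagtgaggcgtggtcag
Rpl38 (chr11:114668550-114668609, plus strand): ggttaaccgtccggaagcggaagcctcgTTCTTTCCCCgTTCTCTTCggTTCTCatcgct
Rps26 (chr10:128626477-128626536, minus strand): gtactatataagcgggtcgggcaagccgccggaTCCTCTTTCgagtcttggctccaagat
Rpl37 (chr15:5116583-5116642, plus strand): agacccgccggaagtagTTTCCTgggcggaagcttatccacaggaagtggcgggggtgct
Rps27 (chr3:90213619-90213678, minus strand): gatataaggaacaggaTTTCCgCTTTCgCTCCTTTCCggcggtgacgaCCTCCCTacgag

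Rpl38, Rps26 and Rps27 have a pyrimidine run of 9 or 10 bases in this window, while the longest run was 5 bases in Rps28 and 6 in Rpl37. The runs of Rps28 and Rpl37 lie wholly before the RefSeq start, outside the mRNA by that annotation. Of the 69 ribosomal protein genes on the list used here, 52 had an entry. A run of at least 8 C or T on the coding strand, within the 100 bases around the start, was found in 44 of those 52 (84.6%), in 10614 of all 27025 genes with an entry (39.3%) and in 4245 of the 11290 tested genes with an entry (37.6%). The same search for runs of A or G, which are pyrimidine runs on the opposite strand, gave 12 of 52 (23.1%) and 11119 of 27025 (41.1%). These shares describe the gene class, not how its members varied between libraries.

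Rps29, a small-subunit protein, had the smallest p of all genes tested. It stood at 195, 211 and 176 CPM in control cortex and at 469, 286 and 307 CPM in MIA cortex. In striatum it stood at 180, 181 and 212 CPM in control and at 398, 394 and 314 CPM in MIA. Every MIA library lay above every control library. The log2 fold change over both regions was 0.91 ± 0.12 (SE, edgeR unadjusted p = 4.1e-06, adjusted p = 0.0635), with 0.87 in cortex and 0.95 in striatum.

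Rps28, also of the small subunit, ranged from 55.5 to 73.8 CPM in the 6 control libraries (median 67.4) and from 99.9 to 153 CPM in the 6 MIA libraries (median 120), a log2 fold change of 0.92 ± 0.13 (SE). Rpl38, of the large subunit, ranged from 19.3 to 28.2 CPM in control (median 22.3) and from 30.5 to 56.3 CPM in MIA (median 43.1), a log2 fold change of 0.92 ± 0.14. Rps26 ranged from 82.0 to 101 CPM in control (median 85.1) and from 112 to 159 CPM in MIA (median 133), a log2 fold change of 0.61 ± 0.10. None of these overlapped between the groups, and all had an adjusted p of 0.0635 in edgeR. Rpl37, Rpl37a, Rpl36, Rps21 and Rpl41 were likewise higher in every MIA library than in any control library, with log2 fold changes of 0.70, 0.74, 0.74, 0.85 and 0.65. Rps27 overlapped, since control striatum replicate 3 at 303 CPM lay above MIA cortex replicate 2 at 289 CPM, with a log2 fold change of 0.66. MIA cortex replicate 1 had the highest level of all 12 libraries for each of the 10 genes of this paragraph and the one before.

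**Figure D1:**
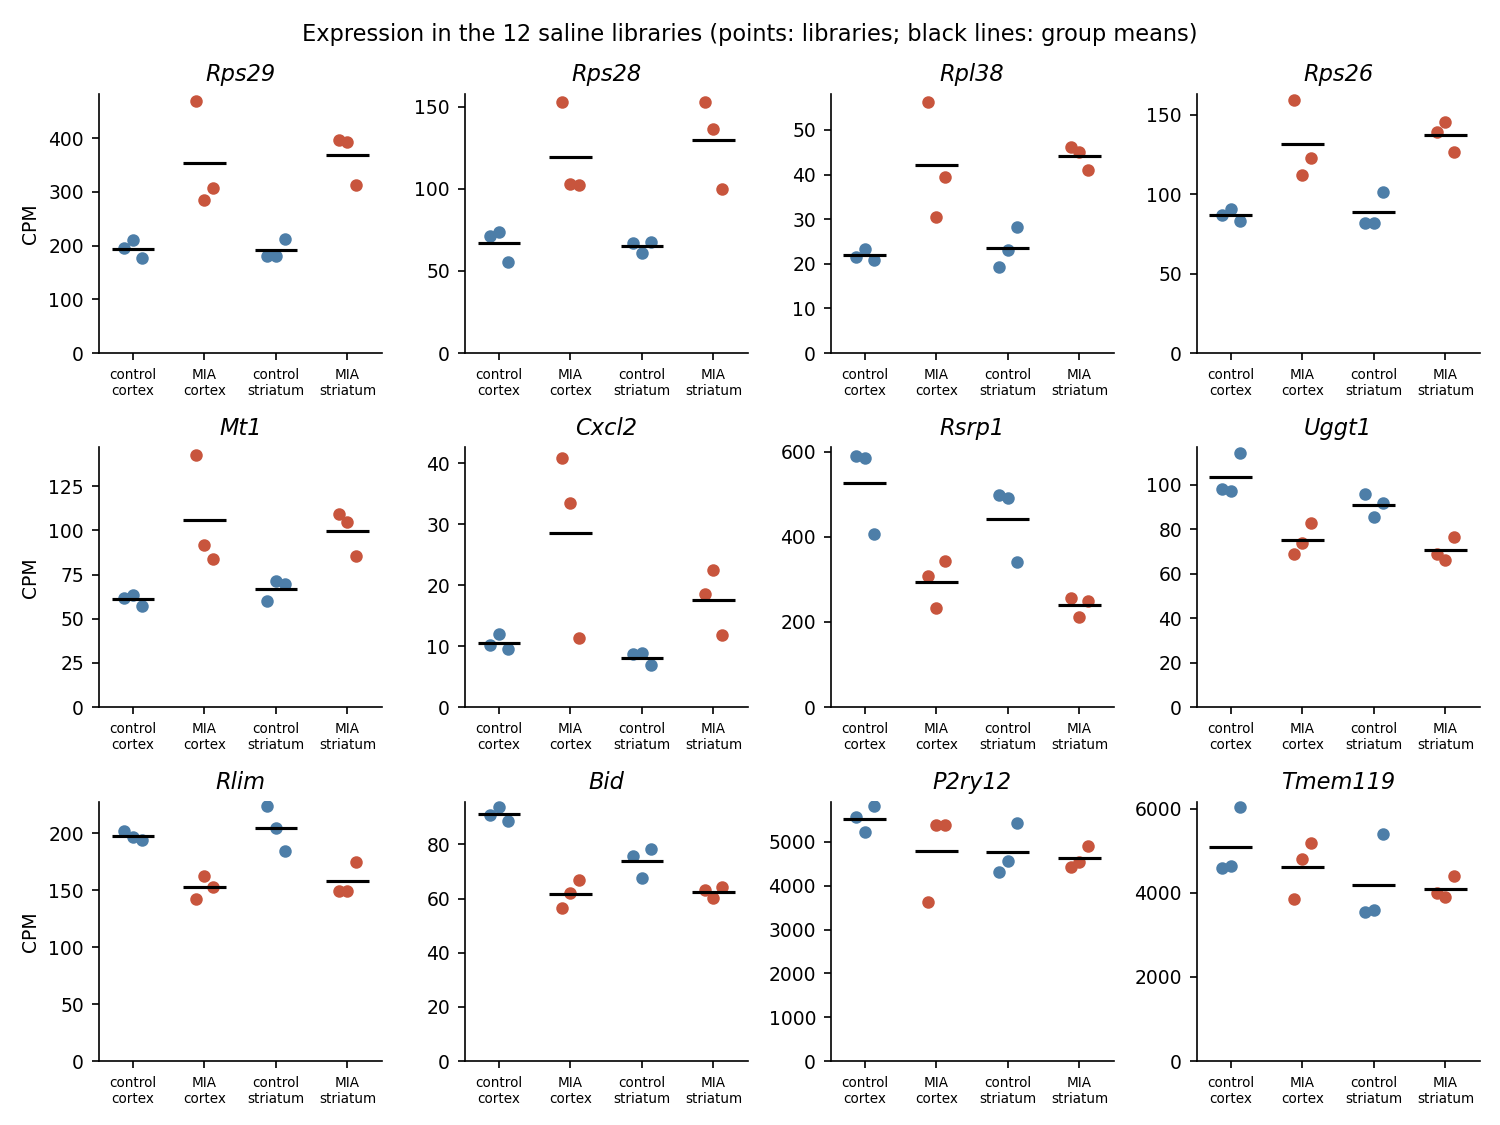
Expression of 12 genes in CPM (vertical axes from 0) in each saline library, by prenatal group and region; blue points are control libraries, red points MIA libraries and black lines group means of 3. Rps29, Rps28, Rpl38, Rps26 and Mt1 were higher in every MIA library than in any control library and Uggt1, Rlim and Bid were lower, while Cxcl2, Rsrp1, P2ry12 and Tmem119 overlapped.

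The whole class leaned the same way. All 69 ribosomal protein genes on the list were tested, and 69 of 69 had a log2 fold change above 0, beside 7881 of all 15663 genes tested. Their median was 0.45 (0.35 in cortex, 0.56 in striatum), against 0.0018 over all genes tested. EdgeR called 0 of 69. An unadjusted p under 0.05 with a higher value was found for 50, beside 3.99% of all genes tested. No overlap between the groups was found for 10, beside 0.223% with MIA above, and DESeq2 called 21, beside 0.573% called higher. For the lists below these shares over all genes are likewise the background, with 5.52% for an unadjusted p under 0.05 and a lower value. In the separate regions the background above 0 is 7873 of 15663 genes in cortex and 7301 in striatum. The largest value was that of Rps12, 1.02 ± 0.24 (SE), and the smallest that of Rpl4, 0.06 ± 0.12. Without control striatum replicate 3, 68 of 69 were above 0. Many ribosomal protein genes have near-identical processed copies in the genome among which reads can be split, so the level of any single member is uncertain.

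As a share of all counts, ribosomal protein genes took 1.24% to 1.65% in control libraries and 1.58% to 2.45% in MIA libraries. The means were 1.49% ± 0.193 and 1.93% ± 0.362 (SD, n = 6 each), and an exact two-sided permutation test within region gave p = 0.05, or 0.42 after Benjamini-Hochberg adjustment over 14 shares. That test has 400 arrangements and cannot give a p below 0.005. Both figures treat cortex and striatum libraries as independent. The labels do not say whether 1 animal gave both, and if so the p could be too small. The groups overlapped. In each of the 4 groups the replicate 3 library had the lowest ribosomal share, and it also had the lowest share of mitochondrial genes. The mitochondrial share was 3.25% ± 0.801 in control and 3.12% ± 0.443 in MIA (SD, n = 6 each).

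Among ribosomal protein genes of up to 1500 nt the difference was greatest in the short transcripts. The 12 members of at most 500 nt had a median log2 fold change of 0.75, the 21 members of 500 to 700 nt 0.51, the 24 members of 700 to 1000 nt 0.33 and the 8 members of 1000 to 1500 nt 0.30. Longer members did not continue this order: the 2 members of 1500 to 2000 nt had a median of 0.27, and Rpl22 and Rps20, the only members above 2000 nt, stood at 0.67 and 0.50. Other coding genes varied with length over a narrower range. Their medians were 0.05 up to 500 nt, 0.09 from 500 to 700 nt, -0.06 from 2000 to 3000 nt and 0.02 above 6000 nt. They also varied with GC content, from -0.11 at up to 40% GC to 0.06 above 55% GC. When the trend over length and GC in each library was removed, a correction chosen after seeing the data, the ribosomal median was 0.35 with 69 of 69 members above 0 and 44 at an unadjusted p under 0.05, and edgeR called 0 genes. The part of RNA quality or library preparation in the length pattern was not tested.

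**Figure D2:**
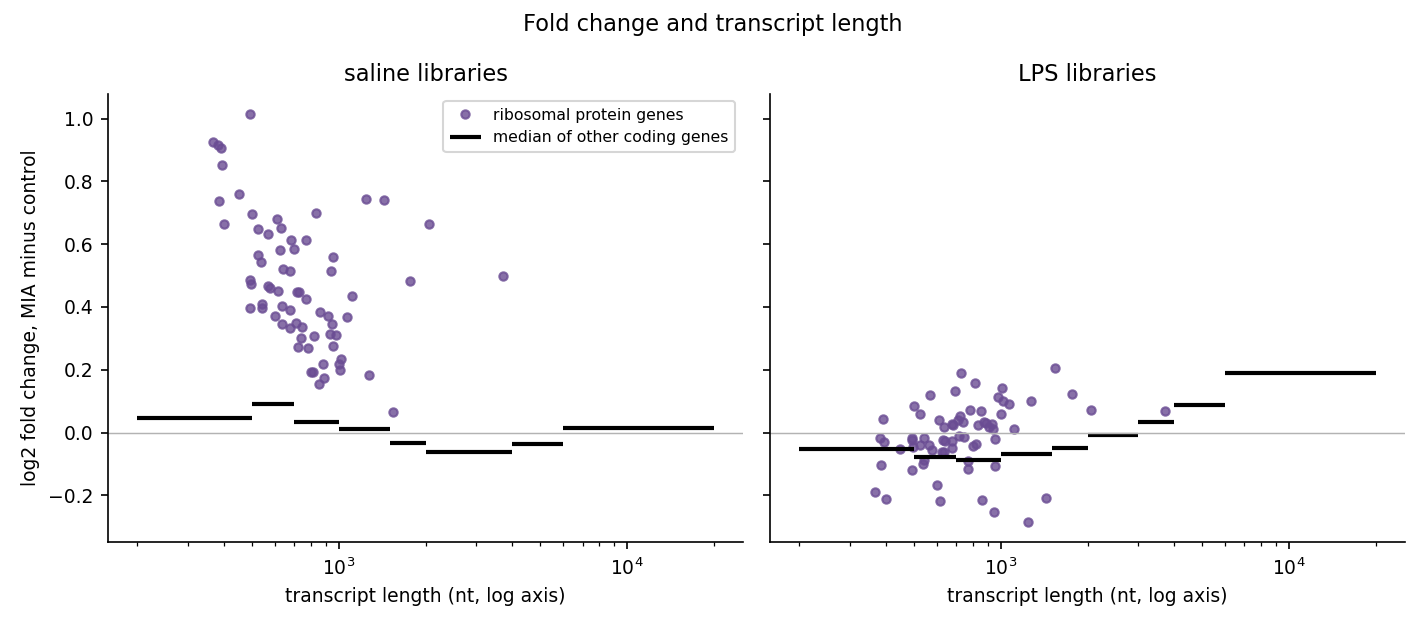
Log2 fold change of MIA minus control against transcript length (nt, log axis) in the saline libraries (left) and the LPS libraries (right); purple points are the 69 ribosomal protein genes and black bars the medians of other coding genes in length bins, the outermost of which are open. In the saline libraries all 69 points lie above 0 with the highest values among the short transcripts, and in the LPS libraries 33 lie above and 36 below 0.

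Nuclear genes of the respiratory chain, whose products join the mitochondrially encoded subunits in oxidative phosphorylation, were also mostly higher in MIA. Of 53 tested, 40 had a log2 fold change above 0, with a median of 0.18 (0.20 in cortex, 0.17 in striatum). EdgeR called 0, and 19 had an unadjusted p under 0.05, all of them higher. Atp5e, a small subunit of ATP synthase, stood at 32.9, 31.0 and 27.7 CPM in control cortex and at 58.3, 33.7 and 50.6 CPM in MIA cortex. In striatum it stood at 31.1, 33.7 and 32.1 CPM in control and 45.4, 49.0 and 41.4 CPM in MIA. Only MIA cortex replicate 2 reached down to the control range, and the log2 fold change was 0.56 ± 0.12 (SE). Ndufa1 of complex I had a log2 fold change of 0.48 ± 0.13 and Cox8a of complex IV 0.42 ± 0.12. With the length and GC trend removed the list median was 0.11. The 13 subunits encoded by mitochondrial DNA had a median of -0.05, and mt-Cytb of complex III stood at -0.39 ± 0.14, with -0.13 in cortex and -0.65 in striatum. Snrpg, a core protein of the spliceosome, was among the 12 higher genes with the smallest p, with means of 18.9 CPM in control and 30.9 CPM in MIA and no overlap.

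Rsrp1, an arginine- and serine-rich protein, had the smallest p among the genes lower in MIA. It stood at 591, 584 and 406 CPM in control cortex and at 307, 233 and 343 CPM in MIA cortex. In striatum it stood at 498, 490 and 341 CPM in control and at 257, 211 and 248 CPM in MIA. Within each region all MIA libraries lay below all control libraries, and across regions only MIA cortex replicate 3 lay above a control library, striatum replicate 3. The log2 fold change was -0.87 ± 0.13 (SE, edgeR adjusted p = 0.0635), the only one of the 12 lower genes to share the smallest adjusted p.

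Uggt1, which checks glycoprotein folding in the endoplasmic reticulum, ranged from 85.5 to 114 CPM in control (median 96.7) and from 66.4 to 83.0 CPM in MIA (median 71.4), a log2 fold change of -0.41 ± 0.08 (SE). Rlim, an E3 ubiquitin ligase encoded on the X chromosome, ranged from 184 to 224 CPM in control (median 199) and from 142 to 174 CPM in MIA (median 151), a log2 fold change of -0.37 ± 0.07. Bid, which carries death-receptor signals to mitochondria, ranged from 67.5 to 93.9 CPM in control and from 56.5 to 66.9 CPM in MIA. Its log2 fold change was -0.40 ± 0.08, with -0.56 in cortex and -0.24 in striatum. For Uggt1, Rlim and Bid no MIA library reached the lowest control library.

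Further lower genes among the 12 with the smallest p were Dennd4a at -0.46, Exoc6b of the exocyst at -0.55, Rlf at -0.42, the endosomal protein Zfyve16 at -0.45, the ribosome rescue factor Hbs1l at -0.53, Mettl2 at -0.54 and the zinc finger gene Zfp646 at -0.37, all as log2 fold changes. Of the 12 lower genes, 10 had no overlap between the groups and all 12 were lower in both regions. Of the 12 higher genes, 11 had no overlap and all 12 were higher in both regions. DESeq2 called all 24. They were picked by their p in this comparison, so these counts describe them and are no further support.

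Metallothioneins bind zinc and copper and are induced by metals and glucocorticoids. Mt1 stood at 62.0, 63.7 and 57.1 CPM in control cortex and at 143, 91.9 and 83.7 CPM in MIA cortex. In striatum it stood at 60.1, 71.5 and 69.5 CPM in control and at 110, 105 and 85.3 CPM in MIA. The groups did not overlap, and the log2 fold change was 0.69 ± 0.13 (SE, edgeR adjusted p = 0.161). Mt2 ranged from 2.39 to 3.36 CPM in control cortex and from 6.40 to 10.9 CPM in MIA cortex, a log2 fold change of 1.57, against 0.35 in striatum. The edgeR test of that regional difference gave an unadjusted p of 0.00639 for Mt2 and missed the adjusted threshold. Of 24 glucocorticoid-responsive genes, 13 were above 0, with a median of 0.37 in cortex and -0.15 in striatum, and DESeq2 called 2, Mt1 and Mt2, both higher.

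Genes of homeostatic microglia overlapped between the groups. P2ry12 ranged from 4314 to 5815 CPM in control (median 5329) and from 3640 to 5384 CPM in MIA (median 4730), a log2 fold change of -0.12 with a 95% confidence interval from -0.34 to 0.10. Tmem119, a microglial surface protein, had a log2 fold change of -0.08 with an interval from -0.35 to 0.18. The interval ran from -0.24 to 0.13 for Cx3cr1, from -0.38 to 0.10 for the growth factor receptor Csf1r and from -0.23 to 0.36 for the transcription factor Sall1. These intervals leave room for differences of that size in either direction. Of the 28 genes on the list, 11 were above 0 over both regions and the median was -0.05. In cortex 5 were above 0 (median -0.16) and in striatum 18 (median 0.08). EdgeR called 0, and 2 had an unadjusted p under 0.05, both lower. The 28 genes together took 11.2% ± 0.758 of counts in control and 11.4% ± 0.408 in MIA (SD, n = 6 each).

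Genes of disease-associated microglia, a lipid-handling and phagocytic state, were mostly higher. Of 24 tested, 22 were above 0 with a median of 0.20 (0.08 in cortex, 0.32 in striatum), edgeR called 0 and 4 had an unadjusted p under 0.05. B2m, the light chain of MHC class I molecules, ranged from 2226 to 2322 CPM in control cortex, 2602 to 2839 CPM in MIA cortex, 2064 to 2681 CPM in control striatum and 3224 to 3262 CPM in MIA striatum. It separated the groups within each region, with a log2 fold change of 0.36 ± 0.08 (SE), and DESeq2 called it. The receptor Trem2 had a log2 fold change of 0.20 ± 0.09 and the lipid carrier Apoe 0.20 ± 0.08. For Apoe the value was 0.02 with the length and GC trend removed. Of 22 genes of MHC class I presentation, 12 were above 0 with a median of 0.02. Of 18 genes of MHC class II and co-stimulation, 12 were above 0 with a median of 0.09. The class II chains H2-Aa and H2-Ab1 had log2 fold changes of 0.49 ± 0.16 and 0.45 ± 0.15.

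Cytokines and chemokines were mostly higher in MIA. Of 29 tested, 25 were above 0 with a median of 0.19 (0.14 in cortex, 0.20 in striatum), edgeR called 0 and 8 had an unadjusted p under 0.05, all higher. Cxcl2, a chemokine that attracts neutrophils, stood at 10.1, 11.9 and 9.5 CPM in control cortex and at 40.9, 33.4 and 11.3 CPM in MIA cortex. In striatum it stood at 8.63, 8.89 and 6.84 CPM in control and at 18.5, 22.4 and 11.8 CPM in MIA. Replicate 3 was the lowest of both MIA groups and lay below the highest control library, so the groups overlapped. The log2 fold change was 1.28 ± 0.27 (SE). Ccl5, which attracts T cells, had a log2 fold change of 1.03 ± 0.28 at a mean of 1.70 CPM in control and 3.63 CPM in MIA, and the anti-inflammatory cytokine Il10 had 1.24 ± 0.35 at 1.86 and 4.73 CPM. DESeq2 called Cxcl2 and Ccl5. The monocyte attractant Ccl12 had a log2 fold change of 0.32 ± 0.10. Tnf at 0.14 ± 0.19 and Il1b at 0.08 ± 0.12, the classical inflammatory cytokines, and Ccl2 at 0.04 ± 0.21 overlapped widely. The median of the cytokine list was 0.29 without control cortex replicate 1. Neutrophil markers took 0.0426% to 0.0651% of counts in control cortex, 0.0577% to 0.107% in MIA cortex, 0.0320% to 0.0367% in control striatum and 0.0302% to 0.0396% in MIA striatum. Their part in the cytokine values was not tested.

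Immediate early genes, which cells transcribe within minutes of stimulation or of tissue dissociation, were mostly higher. Of 21 tested, 16 were above 0 with a median of 0.29, edgeR called 0, and at an unadjusted p under 0.05 7 were higher and 1 lower. Klf2, a transcription factor that restrains inflammatory genes, stood at 25.5, 20.7 and 5.63 CPM in control cortex and at 206, 69.0 and 10.6 CPM in MIA cortex. In striatum it stood at 29.6, 33.3 and 15.1 CPM in control and at 219, 170 and 16.5 CPM in MIA. Of the 6 MIA libraries, 4 lay above all controls, and the replicate 3 library was the lowest of its group in every group. The log2 fold change was 2.42 ± 0.67 (SE, edgeR adjusted p = 0.357). Egr3 was lower, at -0.60 ± 0.18. The median of the list was 0.50 without control cortex replicate 1 and 0.47 without MIA striatum replicate 3. The part of tissue handling in these values was not tested.

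Interferon response and Toll-like receptor genes were mostly lower in MIA. Of 50 interferon response genes tested, 8 were above 0, the median was -0.20 (-0.12 in cortex, -0.23 in striatum), edgeR called 0 and 5 had an unadjusted p under 0.05, all lower. Slfn2, an interferon-induced gene, stood at -0.39 ± 0.13 (SE). Isg15, a ubiquitin-like interferon-induced protein, went the other way at 0.41 ± 0.20, from a mean of 2.60 CPM in control to 3.44 CPM in MIA. The median of the list was -0.13 without control cortex replicate 1 and -0.10 without MIA cortex replicate 1. Of 29 genes of LPS sensing and Toll-like receptor signalling, 9 were above 0, the median was -0.15, edgeR called 0 and 6 had an unadjusted p under 0.05, all lower. Tlr2, the receptor for bacterial lipoproteins, ranged from 301 to 411 CPM in control (median 344) and from 229 to 328 CPM in MIA (median 262), a log2 fold change of -0.37 ± 0.10. The RNA sensor Tlr7 and the LPS receptor Tlr4 both stood at -0.37, with errors of 0.12 and 0.16. MIA cortex replicate 1 had the lowest level of both, and without it Tlr7 stood at -0.25, Tlr4 at -0.21 and the list median at -0.06. The list median was -0.10 without MIA striatum replicate 1 and -0.09 with the length and GC trend removed. The LPS co-receptor Cd14 overlapped at -0.04 ± 0.09.

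**Figure D3:**
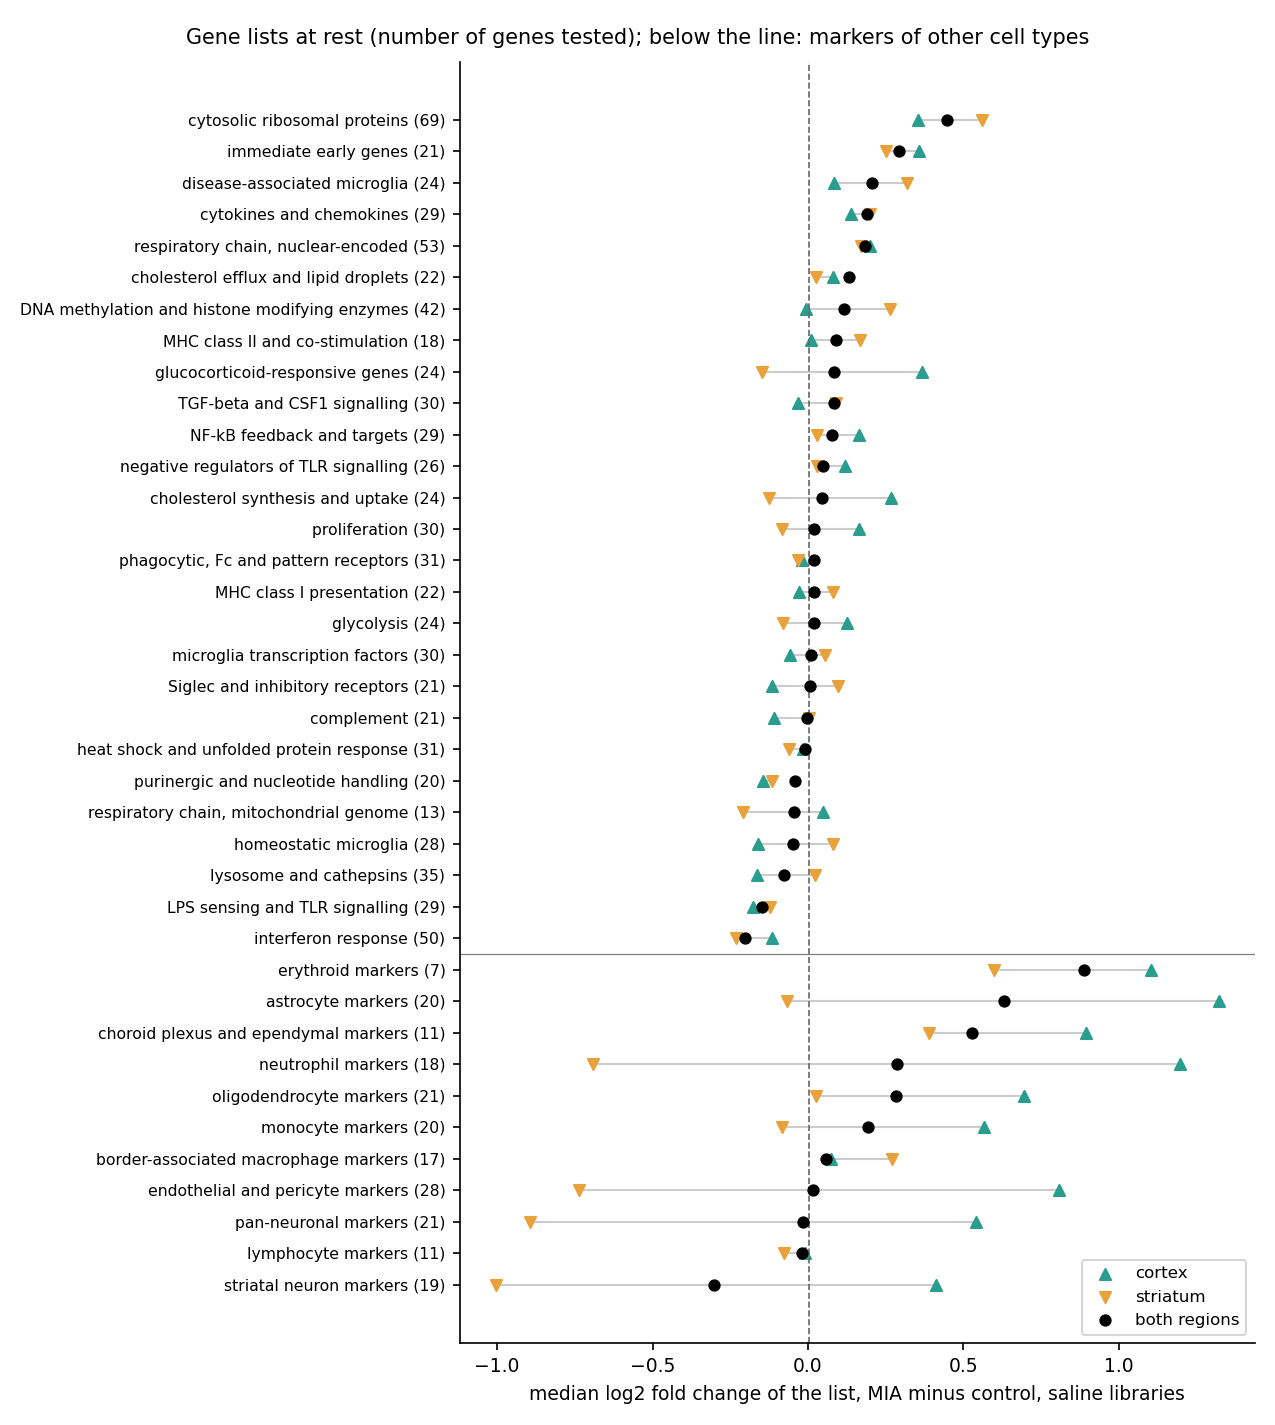
Median log2 fold change of MIA minus control in the saline libraries for each gene list, with the number of genes tested in brackets; black points are both regions, green triangles cortex and orange triangles striatum, and lists below the grey line are markers of other cell types. Ribosomal protein genes have the highest median of the lists above the line (0.45) and interferon response genes the lowest (-0.20), and several marker lists lie far apart in the regions.

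Heat shock and unfolded protein response genes had a median of -0.01 over 31 genes, with 6 at an unadjusted p under 0.05, all lower, among them the endoplasmic reticulum chaperone Hsp90b1 at -0.27 ± 0.07 (SE) and the disulfide isomerase Pdia6 at -0.28 ± 0.08. Lysosome and cathepsin genes had a median of -0.08 over 35 genes with 10 above 0. In cortex 4 were above 0 (median -0.16) and in striatum 20 (median 0.02). The cathepsin Ctso was lower in every MIA library than in any control library, at -0.24 ± 0.08. Among glycolytic genes, Pgam1 was called by DESeq2 with an edgeR log2 fold change of 0.26 ± 0.06, while the median of the list was 0.02 over 24 genes. Genes of DNA methylation and histone modification had a median of 0.12 over 42 genes, and the histone demethylase Kdm6b stood at 0.49 ± 0.15. The remaining lists (NF-kB targets, negative regulators of Toll-like receptor signalling, complement, phagocytic receptors, Siglecs, purinergic genes, TGF-beta and CSF1 signalling, microglial transcription factors, both cholesterol lists and proliferation) had medians between -0.04 and 0.13 over both regions, and edgeR called 0 of their genes. Some lay further apart in the separate regions, such as cholesterol synthesis and uptake at 0.27 in cortex and -0.13 in striatum. The kinase Src of the NF-kB list, at 0.63 ± 0.14, and the lectin receptor Clec5a of the phagocytic list, at -0.26 ± 0.07, were called by DESeq2.

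The values in the separate regions came from a fit with a term per group. EdgeR called 0% of the 15663 genes in cortex, 0% in striatum and 0% for the difference between the regional effects, with 1294, 1187 and 1087 genes at an unadjusted p under 0.05. DESeq2 called 132 genes higher (0.86% of 15353) and 20 lower (0.13%) in cortex, and 19 higher (0.198% of 9589) and 6 lower (0.0626%) in striatum. For the difference between regions DESeq2 called 3 genes with a greater value in striatum (0.0256% of 11714) and 81 with a greater value in cortex (0.691%). Among the 69 ribosomal protein genes DESeq2 called 6 in cortex and 9 in striatum, all higher, and 0 for the difference. The 12 calls of DESeq2 among 20 astrocyte markers in cortex, all higher, were the most of any list.

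Markers of other cell types differed by region. Over all 15663 genes tested, 7873 had a log2 fold change above 0 in cortex and 7301 in striatum. Endothelial and pericyte markers had a median log2 fold change of 0.81 in cortex, where 28 of 28 were above 0, and of -0.73 in striatum, where 0 of 28 were above 0. EdgeR called none. For the difference between regions it gave 25 of the 28 an unadjusted p under 0.05, all with the lower log2 fold change in striatum. Of all 15663 genes tested, 876 had such a p in that direction. These markers took 0.143% to 0.205% of counts in control cortex, 0.262% to 0.287% in MIA cortex, 0.324% to 0.576% in control striatum and 0.151% to 0.444% in MIA striatum. Astrocyte markers took 0.0594% to 0.0864% in control cortex, 0.105% to 0.139% in MIA cortex, 0.127% to 0.198% in control striatum and 0.122% to 0.158% in MIA striatum. The cortical groups did not overlap in either share and the striatal groups did. Astrocyte markers had a median log2 fold change of 1.32 in cortex, with 19 of 20 above 0, and of -0.07 in striatum, with 5 of 20 above 0. Gfap, the intermediate filament of astrocytes, was among those above 0 in both. It ranged from 4.16 to 6.05 CPM in control cortex, 12.1 to 21.7 CPM in MIA cortex, 7.60 to 13.6 CPM in control striatum and 10.5 to 25.9 CPM in MIA striatum. Neutrophil markers had medians of 1.20 in cortex and -0.69 in striatum, pan-neuronal markers 0.54 and -0.89, and oligodendrocyte markers 0.69 and 0.03. Over both regions 16 of 21 oligodendrocyte markers were above 0, with a median of 0.28, but their share of counts went the other way. It was 0.581% ± 0.232 in control and 0.422% ± 0.0992 in MIA (SD, n = 6 each), with an exact permutation p of 0.06 (adjusted 0.42), and it was lower in MIA with each library left out, by 0.113 to 0.214 percentage points. Trf, the iron carrier transferrin and a member of that list, was lower in every MIA library than in any control library. Its mean was 3498 CPM in control and 2903 CPM in MIA, a log2 fold change of -0.27 ± 0.08 (SE). By these means Trf held the larger part of the oligodendrocyte share in both groups, so that share weighs this gene above the other members. The fall of Trf was still the smaller part of the difference in share. Trf did not vary by region as the list did: its log2 fold change of striatum minus cortex was -0.02. The mean log2 CPM of the list was 2.40 to 3.47 in control cortex and 4.71 to 4.81 in control striatum. Whether Trf came from oligodendrocytes was not tested. Of 19 striatal neuron markers, 15 were above 0 in cortex and 1 in striatum. Monocyte markers had medians of 0.57 in cortex and -0.08 in striatum, lymphocyte markers -0.01 and -0.08, and choroid plexus and ependymal markers 0.90 and 0.39. Over both regions none of the 14 shares of counts passed an adjusted exact permutation p of 0.05, the lowest being 0.42. Endothelial and pericyte markers had a median of 0.02 over both regions and astrocyte markers 0.63. The part of these cells in the values of the other lists was not tested.

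**Figure D4:**
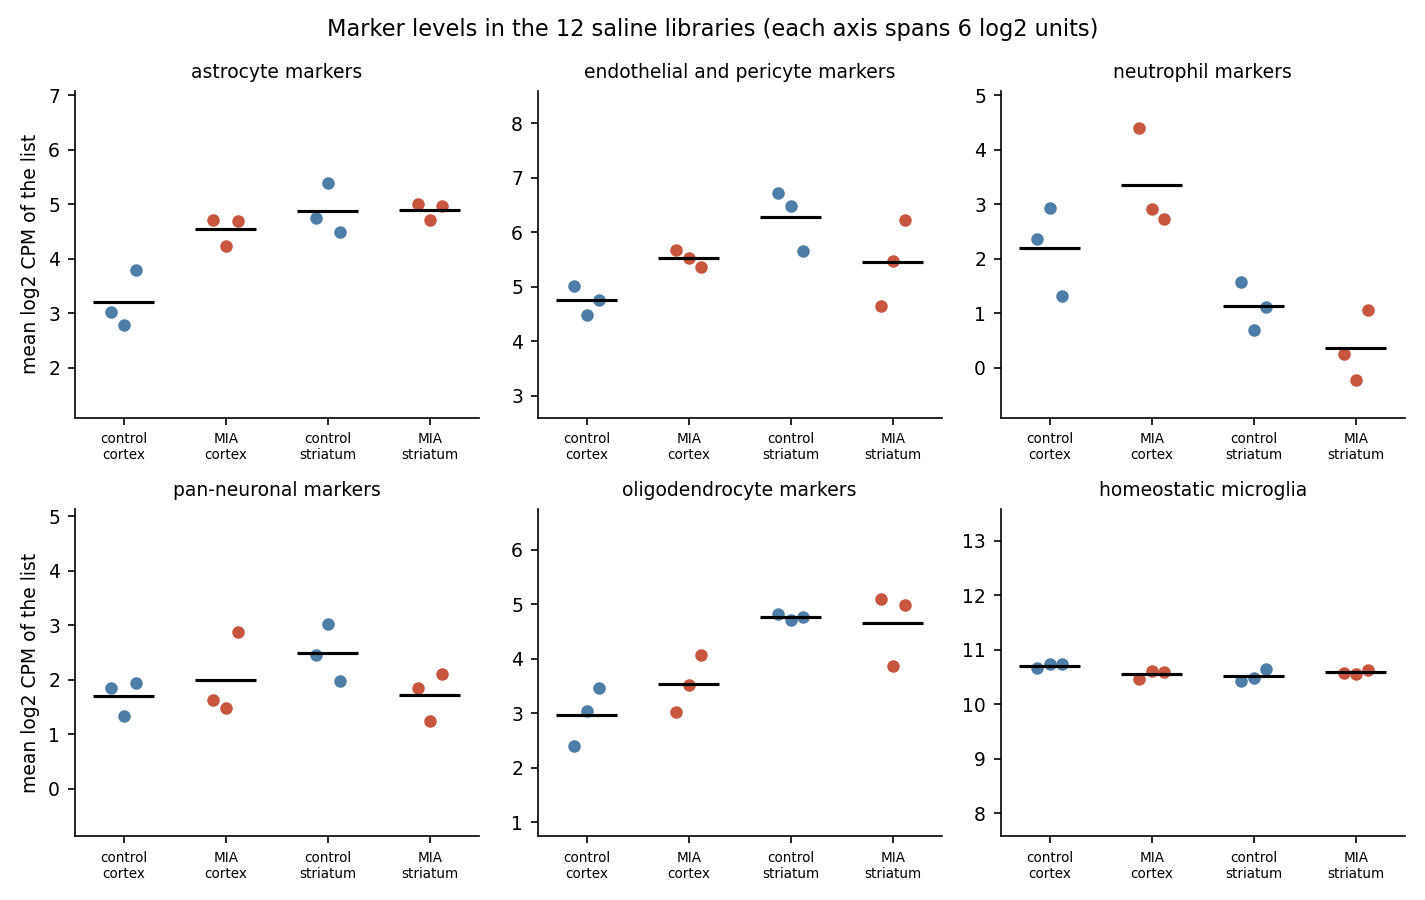
Mean log2 CPM of 5 marker lists of other cell types and of homeostatic microglial genes in each saline library, by prenatal group and region; blue points are control and red points MIA libraries, black lines are means of 3, and each vertical axis spans 6 log2 units. Astrocyte and endothelial markers lie higher in all MIA cortex libraries than in control cortex, and homeostatic genes lie within a narrow band in all groups.

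Border-associated macrophages, which line vessels and meninges and also carry CD11b, had marker medians of 0.07 in cortex and 0.27 in striatum, and 4 of 17 markers had an unadjusted p under 0.05, all higher. Their chemokine Pf4 ranged from 42.7 to 62.0 CPM in control cortex, 76.0 to 83.8 CPM in MIA cortex, 18.8 to 30.1 CPM in control striatum and 29.1 to 48.4 CPM in MIA striatum, a log2 fold change of 0.58 ± 0.15 (SE). Haemoglobin genes of red blood cells varied widely within groups: Hba-a1 stood at 253, 20.9 and 146 CPM in MIA cortex and at 71.4, 12.8 and 111 CPM in MIA striatum, against 31.1 to 67.0 CPM in control. The 7 erythroid markers had a median of 0.89 over both regions.

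The same contrast was fitted in 11 libraries of animals given LPS (4500 EU/g) 18 hours before collection, 6 control and 5 MIA, because the labels mark the third MIA striatum library as excluded. EdgeR called 10 of 15968 genes there (0.0626%), 1 higher and 9 lower in MIA. Without the third MIA cortex LPS library it called 157 (27 higher, 130 lower), and without any other single library 1 to 16. The values of the resting comparison and of this fit stand side by side below, and whether they differ was not tested.

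Of the 15152 genes tested both at rest and after LPS, 7750 were above 0 and 7402 below 0 after LPS, with a median of 0.008. Of the 12 genes higher at rest, 5 were above 0 after LPS, with a median log2 fold change of -0.01. Of the 12 lower genes 6 were below 0, with a median of -0.02. Rps29 stood at 0.04 ± 0.21 (SE) after LPS against 0.91 at rest, and the 69 ribosomal protein genes had a median of -0.02 against 0.45. Rsrp1 was lower in both, at -0.67 (edgeR unadjusted p = 0.0123) after LPS, and Bid at -0.52 (edgeR unadjusted p = 0.00355). Respiratory chain genes had a median of -0.14 after LPS against 0.18 at rest.

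Interferon response genes had a median of -1.44 after LPS, against -0.20 at rest. After LPS 0 of 50 were above 0, beside 7750 of 15152 genes, and edgeR called 1 lower. Isg15 stood at -1.62 after LPS and at 0.41 at rest, and Cxcl10, an interferon-induced chemokine, at -1.33 and -0.17. The 9 genes called lower after LPS were the haemoglobin genes Hba-a2, Hba-a1 and Hbb-bs and the genes Ccl2, Slfn2, Slamf8, Mcemp1, Trex1 and Tlr1, and Tmem44 was called higher. At rest Hba-a2, Hba-a1 and Hbb-bs stood at 0.92, 0.99 and 0.89, Ccl2 at 0.04, Slfn2 at -0.39, Slamf8 at -0.05, Mcemp1 at 0.54, Trex1 at -0.17, Tlr1 at -0.26 and Tmem44 at -0.17, and none of these passed the edgeR threshold. Ccl12 stood at 0.32 at rest and at -1.67 after LPS, where it missed the adjusted threshold.

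**Figure D5:**
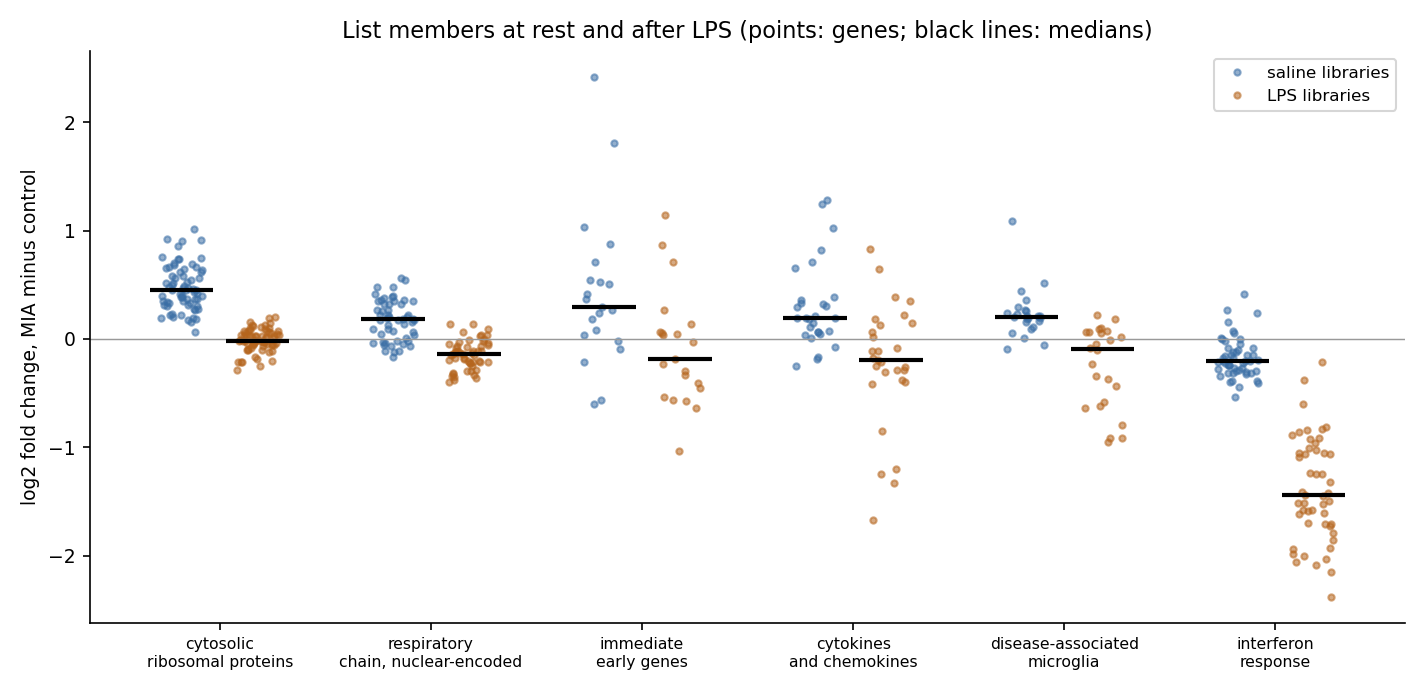
Log2 fold change of MIA minus control for the members of 6 gene lists in the saline libraries (blue) and the LPS libraries (orange); each point is a gene and black lines are list medians. Ribosomal protein genes have medians of 0.45 and -0.02 and interferon response genes of -0.20 and -1.44 in the saline and the LPS libraries.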

How the data were processed

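RNA was sequenced from CD11b-sorted microglia, and the deposited table holds expected (estimated) counts per gene for each library. The submitters' processing notes name STAR, RSEM and DESeq2. Versions and the genome build are not given in the sources used here. Of the deposited values 7.01% were not whole, and expected counts were rounded.

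Genes were filtered with filterByExpr (minimum count 10, minimum total 15), scaled by TMM and tested with edgeR 4.0.16's quasi-likelihood test in R 4.3.3, with terms for region and prenatal group on the 12 saline libraries. Regional effects came from a fit with a term per group. The Benjamini-Hochberg threshold was 0.05 over all genes tested. Alternatives used DESeq2 1.42.0, limma 3.58.1, other filters and scalings, a replicate block and leaving out each library. The scripts were tested on simulated data. CPM values use library totals scaled by the TMM factor. Transcript lengths came from GENCODE M21.

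The members and the 39 gene lists were chosen with earlier results of these data known. Named genes were the 12 of smallest p in each direction with at least 5 CPM (predicted genes passed over), up to 3 of smallest p per list, 16 genes of interest and the sex genes; some of them are not reported here. Rps12, Rpl4 and the genes called after LPS were named after their values were seen.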

Additional observations from a re-analysis of the deposited data

How the results depend on the processing

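The count of genes called by edgeR for MIA against control over both regions was 0 with all 12 libraries and 0 to 12 with each left out. It was 17 with all genes of at least 1 count, 7 with a mean of at least 5 CPM, 2 with a replicate block (Rps28 and Rps29) and 111 with DESeq2. With same-numbered libraries of a prenatal group as 1 unit it was 0, both in limma voom (smallest adjusted p 0.136) and in edgeR on their summed counts (0.748). The cortex count was 36 without a filter and 152 with DESeq2, the striatum count 25 and the interaction count 84 with DESeq2, against 0 in edgeR. The region count was 556 without a filter, 103 with the 5 CPM filter and 97 to 422 with a library left out. After LPS the count was 3 with the excluded library added and 1 to 157 with a library left out. The cause of these changes was not tested.

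Same-numbered libraries of the same prenatal group in the other region correlated at 0.0552 to 0.325 in their deviations from group means, and 10 of 12 libraries correlated best with their own number. Across prenatal groups within a region the range was -0.0658 to 0.289. The 6 pairs of replicate 3 libraries all correlated positively, at 0.0929 to 0.325. The labels do not say what a number shares, and only 4 of the 6 same-group pairs were above 0.1 where all were required, so the fit over all libraries carries no block. Shared variation between same-numbered libraries is a hint from the data that neither this fit nor the permutation tests take into account.

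Of 2429 values for 111 named genes over 22 alternatives, 2337 kept their direction and missed the adjusted threshold, 78 passed it with the same direction and 14 changed sign, in 6 genes. Of the 528 values of the 24 genes with the smallest p, 0 changed sign. Ccl2 stood at -0.007985 with the replicate block, -0.0008031 with limma voom and -0.09738 to 0.2143 with a library left out. The other ranges with a library left out were -0.00869 to 0.2616 for Tnf, -0.1378 to 0.009224 for Tmem119, -0.08622 to 0.02271 for Cx3cr1, -0.07898 to 0.03893 for Cd14 and -0.02664 to 0.1512 for Sall1. Differences in shares of counts (MIA minus control, percentage points) ran from -0.367 to 0.0145 for mitochondrial genes, -0.00435 to 0.0113 for border-associated macrophage, -0.00202 to 0.00529 for monocyte, -0.00371 to 0.00472 for pan-neuronal and -0.000517 to 0.00216 for choroid plexus markers, and -0.0279 to 0.415 for homeostatic genes. With 6 libraries a group and at least 20020048 counts in each, the median SE of the log2 fold change over all genes was 0.21.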
